A study of Mus musculus with 6 samples.

Results

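The even pool of biotinylated probes against Hoxc4-au recovered 5460 peaks over input, of the 9821 peaks deposited for the series. All peaks of its lists were taken, 234 from replicate 1 and 5226 from replicate 2, and each was marked by whether a peak of the odd pool, in either replicate, overlapped it by at least 1 bp. The cells were preadipocytes derived from the epididymal fat of C57BL/6 mice. The even pool, the odd pool and the input each had 2 replicates, and a capture was set against the input that carries its replicate number. Strain and cell type are the same in all groups, and no genotype, treatment, time or age is given. The labels do not tell if a replicate is another animal or another culture, so the spread between replicates may be technical. Their protocol, identical for all samples, speaks of lysate incubated with both pools, and the pool of a library was taken from its title. No capture with probes against another RNA was analysed here, and peak lists cannot show whether the cells carried preadipocyte markers. With 1 library per pool and replicate, differences between the libraries carry no test unless one is named, and intervals (95%) cover counting error only.

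ChIRP-seq captures crosslinked chromatin through an RNA: short antisense DNA probes hybridise to the RNA, streptavidin pulls down the biotin they carry, and the DNA that comes along is sequenced. The probes along the RNA are divided by their order into even and odd sets, so that the sets share the target RNA and not their sequences. Preadipocytes are the fibroblast-like progenitors of the fat depot that can become lipid-storing adipocytes. Hoxc4 is a homeobox transcription factor gene of the HoxC cluster, and Hox clusters give rise to non-coding RNAs as well as to the Hox proteins that set positional identity. HOTAIR, from the same cluster, is the textbook case of such an RNA acting on chromatin. In the mouse this cluster is on chromosome 15. Positions are given on the mouse build mm9. Genes at the peaks, and the DNA sequences under them, were not analysed here, since no annotation of that build was used.

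The even libraries differed in depth. Replicate 1 kept 3934792 tags and replicate 2 kept 11514289, after 47.6% and 9.65% of tags were dropped as duplicates, and the odd libraries kept 4099230 and 10231007. The height of a peak is the number of fragments stacked at its summit, and its fold enrichment is the peak caller's ratio (height + 1) / (local input background + 1). The lowest height in the even lists was 4 fragments in replicate 1 and 5 in replicate 2, which is 1.02 and 0.434 fragments per 1e+06 kept tags. A site therefore needed more fragments per tag to be listed in replicate 1. The caller kept 1 tag per position, which limits a summit to 190 fragments. The highest even summits held 162 and 143. Peaks were listed by a p cutoff, so not all pass a q-value limit, where q is the caller's significance adjusted over the genome. It was above 0.05 for 22 even peaks of replicate 1 (9.40%) and 141 of replicate 2 (2.70%).

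Both replicates of the even pool had a peak at 35 regions, among 5420 regions formed by merging the even lists. They comprised 40 peaks of replicate 1 (17.1%, exact binomial interval 12.5 to 22.5) and 35 peaks of replicate 2 (0.67%, 0.467 to 0.93). Of the 35 regions, 28 also held peaks of both odd lists, 2 held a peak of the first odd list alone, 3 of the second alone, and 2 held no odd peak. The implied input background, recovered from height and fold, split them. At 27 regions it was low in both replicates, at most 2.84 input fragments, and at the other 8 it reached 10 or more in at least 1 replicate. The low-background regions had a median fold of 23.3 in replicate 1 and 8.22 in replicate 2. The high-background regions had median folds of 3.20 and 2.86.

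**Figure D1:**
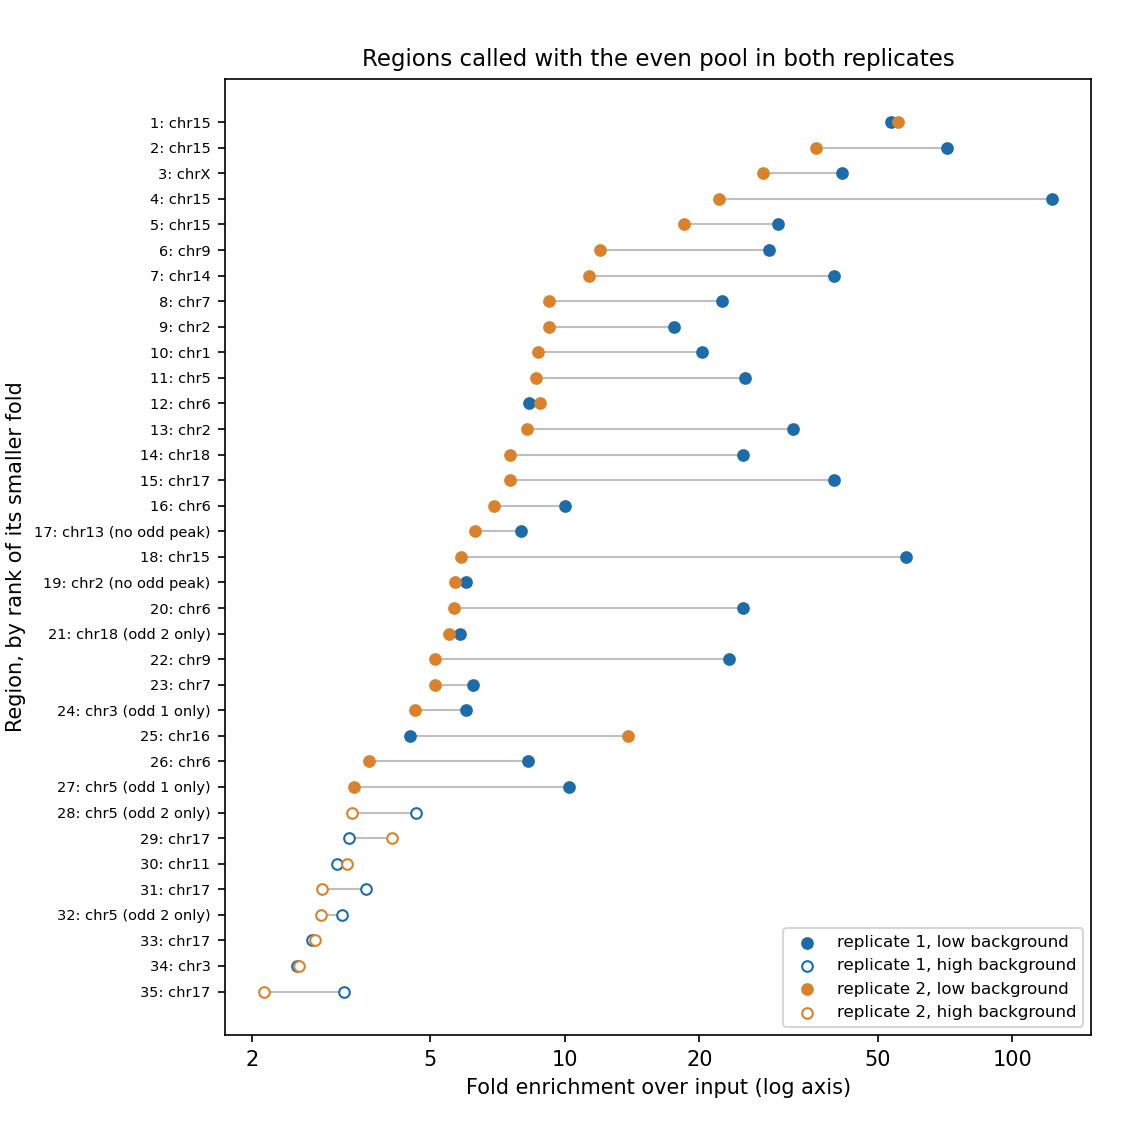
Fold enrichment over input (x axis, log scale) of the 35 regions called with the even pool in both replicates, ordered from the top by the smaller of the folds. Blue is replicate 1 and orange replicate 2, open circles mark a background of 10 or more input fragments, and each line joins the values of 1 region. Chromosome 15 holds 4 of the 5 leading regions, and the 8 high-background regions lie at folds of 2.14 to 4.65.

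The highest fold of the even pool lay on chromosome 15 in both replicates, 123 in replicate 1 and 55.5 in replicate 2. Its 5 peaks spanned 9.22 kb in replicate 1 and 9.19 kb in replicate 2, and all 5 also overlapped odd peaks. The site at 102857185 to 102858087 was the widest, 894 and 903 bp, and held 123 fragments (exact Poisson interval 102 to 147) in replicate 1 and 107 (87.7 to 129) in replicate 2. Its folds of 53.5 and 55.5 gave a mean of 54.5 ± 1.46 (SD, n = 2). This site kept its fold between replicates, while its summit lay 265 bp apart, at 102857841 and 102857576. Per 1e+06 kept tags it held 31.3 and 9.29 fragments.

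At 3 of the other chromosome 15 sites the summits lay within 13 bp of each other. At 102858513 to 102858766 the even pool held 94 and 70 fragments, with summits 8 bp apart and folds of 71.4 and 36.5. The narrow site at 102862503 to 102862676 held 38 and 35 fragments, with summits 1 bp apart. At 102865109 to 102865642, the highest peak of the replicate 1 list, the even pool held 162 fragments against 63 in replicate 2, with summits 13 bp apart. Replicate 1, with fewer tags, had the higher count at all 3 sites, by little at the narrow one and by most at the highest. The site at 102866021 to 102866406 held 76 and 16 fragments (intervals 59.9 to 95.1 and 9.15 to 26), the largest ratio of folds among the 35 regions, 9.84. Its summits were 105 bp apart, the farthest on this chromosome after those of the widest site.

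A site on chromosome X (103382021 to 103382594) had the highest smaller fold outside chromosome 15. It held 49 fragments in replicate 1 and 43 in replicate 2, over input backgrounds at the caller's lowest value in both, for a mean fold of 34.7 ± 9.84 (SD, n = 2). The peaks were 574 and 545 bp wide, with summits 48 bp apart. Most of the further sites were narrower. Chromosome 9 (70653929 to 70654102) held 37 and 18 fragments in 174 and 149 bp. Chromosome 14 (104736121 to 104736293) held 47 and 17 fragments in 173 and 148 bp. Chromosome 17 (4626161 to 4626640) held 47 and 11 fragments in 480 and 309 bp, with summits 1 bp apart.

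Among the 20 regions with the highest smaller fold, 9 more lay outside chromosome 15 and had odd peaks of both replicates, and 8 of the 9 were higher in fold in replicate 1. Chromosome 2 had 2 of them: 125973573 to 125973734, with 34 and 17 fragments, and 16604658 to 16604821, with 42 and 15. Chromosome 7 (52879008 to 52879164) had 26 and 17, and chromosome 1 (12634790 to 12634988) had 26 and 16. Chromosome 5 (114623056 to 114623220) had 41 and 24, and chromosome 18 (65587075 to 65587233) had 29 and 11. On all 6, the raw count was higher in the library with fewer tags. Chromosome 6 (131327504 to 131327664) had 29 and 10 fragments. A neighbouring pair on the same chromosome was more even: 121438437 to 121438748 had 11 and 10 fragments, and 121438038 to 121438370, where replicate 1 had split the region into 2 peaks, had 9 and 13. The latter was lower in fold in replicate 1, 8.33 against 8.83.

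Replicate 1 had the higher fold at 24 of the 27 low-background regions and more fragments per 1e+06 tags at 26 of 27. The median ratio of replicate 1 to replicate 2 was 2.27 in fold, from 0.325 to 9.84, and 3.93 in fragments per kept tag. Per kept tag, the lowest listed height was also higher in replicate 1, as given above, and its part in these ratios was not tested. The region lower in replicate 1 on both scales was on chromosome 16 (17940402 to 17940712), with 5 fragments in replicate 1 and 21 in replicate 2 (intervals 1.62 to 11.7 and 13 to 32.1). Its peak was 95 bp wide in replicate 1, where its q-value was above 0.05, and 311 bp in replicate 2. Summits at low-background regions lay a median of 12 bp apart, within 10 bp at 13 and within 100 bp at 24 of the 27. The other regions without a high background outside the 20 had smaller folds of 3.39 to 5.53.

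The high-background regions differed less between the replicates. On chromosome 17 the even pool had 8 peaks within 5.43 kb in replicate 1 (39980312 to 39985741), with 32 to 37 fragments each, over 9.24 to 12.5 input fragments. Replicate 2 covered the same stretch with 4 peaks, of which 1 was 2578 bp wide and held 143 fragments, the highest summit of its list, at a fold of 4.11. Replicate 1 had the higher fold at 4 of the 8 regions and more fragments per kept tag at 3 of 8, with a median ratio of 0.954 per kept tag. Chromosome 11 (108872988 to 108873381) had folds of 3.10 and 3.26, and chromosome 3 (5860594 to 5860812) had 2.52 and 2.55. The chromosome 3 peak of replicate 1 had a q-value above 0.05. A pair on chromosome 5 (147072544 to 147072724 and 147072772 to 147072914) had folds of 3.18 and 2.86, and of 4.65 and 3.35, and overlapped odd peaks of replicate 2 alone.

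Exactly 2 regions were called in both even lists and in neither odd list. Chromosome 13 (27297899 to 27298047) held 9 fragments in each replicate (interval 4.12 to 17.1), with folds of 8.0 and 6.31 and summits 49 bp apart. The nearest odd peak was 1108820 bp away. Chromosome 2 (163468701 to 163468833) held 7 and 8 fragments (2.81 to 14.4 and 3.45 to 15.8), with folds of 6.02 and 5.68 and summits 3 bp apart. The nearest odd peak there was 220685 bp away. Both were weak, and their −log10 q, the caller's significance adjusted over the genome, was 7.24 and 4.04 on chromosome 13 and 3.41 and 3.04 on chromosome 2. If the odd libraries had captured chromosome 13 at the same rate per tag, the lower ends of the intervals would scale to 4.29 and 3.66 fragments, against lowest listed heights of 4 and 5 in the odd lists. In replicate 2, and on chromosome 2 in both replicates (2.93 and 3.07), a like capture with the odd pool could thus have gone unlisted at this depth.

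Without regard to replication, 112 of the 234 even peaks of replicate 1 (47.9%, interval 41.3 to 54.5) and 4929 of the 5226 of replicate 2 (94.3%, 93.7 to 94.9) overlapped no peak of either odd list. The corresponding shares of odd peaks without an even peak were 37.3% (76 peaks) and 92.8% (3856 peaks). The mean share was 6.08 percentage points higher for the even pool, with a two-sided exact permutation p of 0.667 over the 4 libraries. The smallest p that 2 against 2 libraries allow is 0.333. For both pools the share was higher in replicate 2 than in replicate 1, by a wider gap than that between the pools.

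Even peaks without an odd peak were low and narrow. In replicate 1 they had a median of 7 fragments and a width of 96 bp, against 18 fragments and 153.5 bp for the 122 even peaks with an odd peak. In replicate 2 the medians were 7 fragments and 105 bp, against 9 fragments and 143 bp for 297 peaks. The whole even list of replicate 2 had nearly the same medians, 7 fragments and 106 bp. Low and narrow peaks were not particular to the even pool. Odd peaks without an even peak had medians of 5 fragments and 95 bp in replicate 1, and 7 fragments and 102 bp in replicate 2. A width of 95 bp, the length to which tags were extended and the narrowest in the lists, was found in 47.3% of the replicate 1 peaks without an odd peak and 5.74% of those with one. In replicate 2 it was found in 38.8% and 18.2%. Median folds were 5.83 against 9.01 in replicate 1, and 5.05 in both sets of replicate 2. A −log10 q of 5 or more was reached by 29 of the 112 peaks of replicate 1 (25.9%), where it was reached by 51.3% of all even peaks, and by 176 of the 4929 of replicate 2 (3.57%), against 5.15% of all.

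The share without an odd peak was lower among higher peaks in both replicates. Leaving out high backgrounds, it was 92.3% at 4 to 5 fragments in replicate 1, 79.6% at 6 to 7, 65.5% at 8 to 9 and 30.8% at 10 to 14. From 20 fragments upward it was 0 of 29 peaks and 0 of 4 peaks, which leaves upper limits of 11.9% and 60.2%. In replicate 2 it stayed at 97%, 96.9% and 96.2% up to 9 fragments, was 87.2% at 10 to 14 (337 peaks), and was 29.7% at 15 to 19 (37 peaks) and 13.3% at 20 to 49 (30 peaks). The 6 peaks with 50 or more all had an odd peak. At 10 to 14 fragments the intervals were 17 to 47.6% in replicate 1 and 83.2 to 90.6% in replicate 2. They cover counting within 1 library each and do not test a difference between replicates. Replicate 2 was the deeper library, so an equal number of fragments is fewer per kept tag there. The highest fold of an even peak without an odd peak was 12.8 in replicate 1 and 11.4 in replicate 2. Above these values lay 41 and 17 even peaks, which by this choice of limit all overlapped an odd peak.

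**Figure D2:**
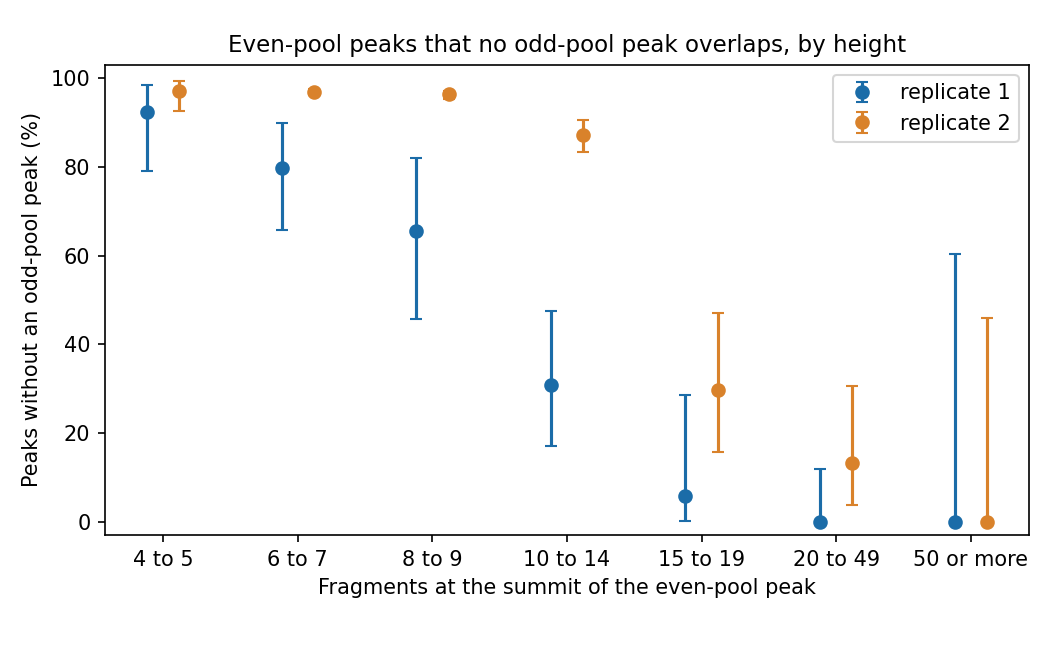
Share of even-pool peaks that no odd-pool peak overlaps (y axis, %), by the number of fragments at the summit (x axis), without peaks over a high background. Points are replicate 1 (blue) and replicate 2 (orange), and bars are exact 95% binomial intervals. The share goes from 92.3% to 0% in replicate 1, and in replicate 2 it stays above 96% up to 9 fragments.

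The strongest even peak of replicate 1 without an odd peak lay on chromosome 15 (77919190 to 77919339). It held 16 fragments (9.15 to 26) over 0.33 input fragments, with a fold of 12.8 and a −log10 q of 17.1, and was 42nd by fold in its list. The nearest odd peak of either list was 30657 bp away. Chromosome 1 (170605296 to 170605406) followed with 13 fragments and a fold of 11.3. Folds of 10.8 with 12 fragments were shared by chromosome 10 (60985078 to 60985226), chromosome 7 (62766198 to 62766344) and chromosome X (96573360 to 96573508). All 3 stood over the lowest background of the list. Chromosome 4 (46214506 to 46214646) and chromosome 16 (35456906 to 35457053) also held 12 fragments, with folds of 10.6 and 10.1. Chromosome 11 (80176821 to 80176968) and chromosome 7 (29876654 to 29876809) held 11, and chromosome 16 (57242051 to 57242170) held 10. None of these 10 peaks had an even peak of replicate 2 on it.

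In replicate 2 the strongest by fold was chromosome 9 (32511610 to 32511771), with 17 fragments (9.9 to 27.2), a fold of 11.4 and the nearest odd peak 76358 bp away. Second was chromosome 17 (24126537 to 24126693), with 19 fragments and a fold of 10.3, and here an odd peak lay 402 bp away. The strongest by q was on chromosome X (166437504 to 166437615), with 26 fragments, a fold of 9.34 and an odd peak 195 bp away. For these last 2 peaks the odd pool was thus called next to the even peak. Chromosome 1 (180797691 to 180797806) held 14 fragments, and chromosome 2 (60399491 to 60399618) held 16. On chromosome 14 (58319037 to 58319172 and 122881576 to 122881693), chromosome 5 (73234567 to 73234716) and chromosome 8 (130793221 to 130793345) the peaks held 13 fragments each, with folds of 8.55 to 8.83. The tenth place, at a fold of 8.20 and 12 fragments, was tied among 10 peaks.

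The heights were also set against the lowest heights in the odd lists. Over a low background, 25 of the 107 even peaks of replicate 1 without an odd peak (23.4%) had an interval whose lower end, scaled to the tags of the odd library, reached the lowest height listed by the odd pool over its lowest background. All 25 held at least 9 fragments. In replicate 2, 53 of 4924 did (1.08%), all with at least 12 fragments. The 20 peaks named above are among them, with scaled lower ends of 5.0 to 9.53 fragments in replicate 1 and 5.51 to 15.1 in replicate 2. These 20 were chosen for high folds, so their place there follows largely from the choice. The scaled values leave out counting error in the odd library. The counts therefore do not show that the odd pool should have listed these sites. The same lowest height was applied to every background under 10 input fragments. Over more than the lowest background a listed peak needs more fragments, so the counts of 25 and 53 may be too high. An odd peak within 500 bp lay beside 2 of the 112 peaks of replicate 1 (1.79%) and beside 195 of the 4929 of replicate 2 (3.96%).

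Fold differed among even peaks grouped by the other lists that called them. In replicate 1, the 110 even peaks seen in no other list had a median fold of 5.83, the 73 shared with the odd pool of the same replicate alone had 9.77, and the 31 shared with all 3 other lists had 20.3. In replicate 2, the 4927 peaks seen in no other list and the 248 shared with the odd pool of that replicate alone both had a median of 5.05. The 27 shared with all had 8.22, and 11 peaks shared with both odd lists and not with the even list of replicate 1 had 9.77. The 4 peaks shared with the other even list and the second odd list alone lay lower, with medians of 3.91 in replicate 1 and 3.50 in replicate 2. In both replicates they include the high-background pair on chromosome 5. Other small groups did not all lie lower: 8 peaks of replicate 1 shared with both odd lists alone had 7.47. In replicate 2, 5 peaks shared with the first odd list alone had 5.14. Equal medians in replicate 2 hide its highest folds, since over a low background 96.5% of 2721 peaks at a fold of 5 to 6 had no odd peak, 55.9% of 34 at 8 to 10 and 11.1% of 18 at 10 to 15. The groups differ in the number of lists that called them, and a stronger peak is more easily called.

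Several strong even peaks over a low background were recovered with both pools in 1 replicate and not by the even pool of the other. In replicate 1 the highest was on chromosome 11 (25000095 to 25000257), where the even capture held 35 fragments and the odd capture 31. Chromosome 2 (145692104 to 145692260) held 27 and 21, and chromosome 5 (131995548 to 131995708) held 27 with each pool. These were narrow peaks, of 157 to 163 bp. In replicate 2 the leading such peaks were the 3 of chromosome 4 between 43575631 and 43579718, where the even capture held 101, 79 and 125 fragments in order of position and the odd capture 129, 90 and 142. The nearest even peak of replicate 1 was 121148 bp or more from each of them. Chromosome 11 (61809932 to 61810655) held 30 and 13 fragments, and the odd pool of replicate 1 also had a peak there. Chromosome 16 (69604261 to 69604504) held 27 and 25, chromosome 4 (154777267 to 154777493) 27 and 10, and chromosome 17 (24125904 to 24126174) 27 and 11. The last lies beside the chromosome 17 peak without an odd peak described above.

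Where both pools of a replicate had a peak, the even fold was higher at 87 of 115 pairs of overlapping peaks in replicate 1, with a median log2 ratio of even to odd of 0.18 (interquartile range 0.01 to 0.37). In replicate 2 it was higher at 133 of 295 pairs, with a median of −0.061 (−0.23 to 0.17). Per kept tag the medians were 0.21 and −0.083. Over all pairs the median was thus above 0 in replicate 1 and below 0 in replicate 2. The median fold ratio of replicate 2 is also what equal heights give there. With 7 fragments in each pool over the lowest backgrounds (0.585 and 0.520), the folds were 5.05 and 5.26. Its sign alone therefore does not tell which pool held more fragments. Per kept tag, equal heights gave −0.17 in replicate 2. In replicate 1, pairs with 8 fragments in each pool gave 0.01 in fold and 0.059 per kept tag. Among pairs with an even fold of 10 or more, a choice that itself favours the even pool, the even fold was higher at 50 of 56 and at 22 of 28. Pairs beyond a 2-fold difference numbered 2 and 9. The pairs of a replicate share an input, and a peak that overlapped several peaks of the other pool entered several pairs. Summits of the pools lay a median of 5 bp apart in replicate 1 and 48 bp in replicate 2, with 74 of 115 and 57 of 295 within 10 bp.

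**Figure D3:**
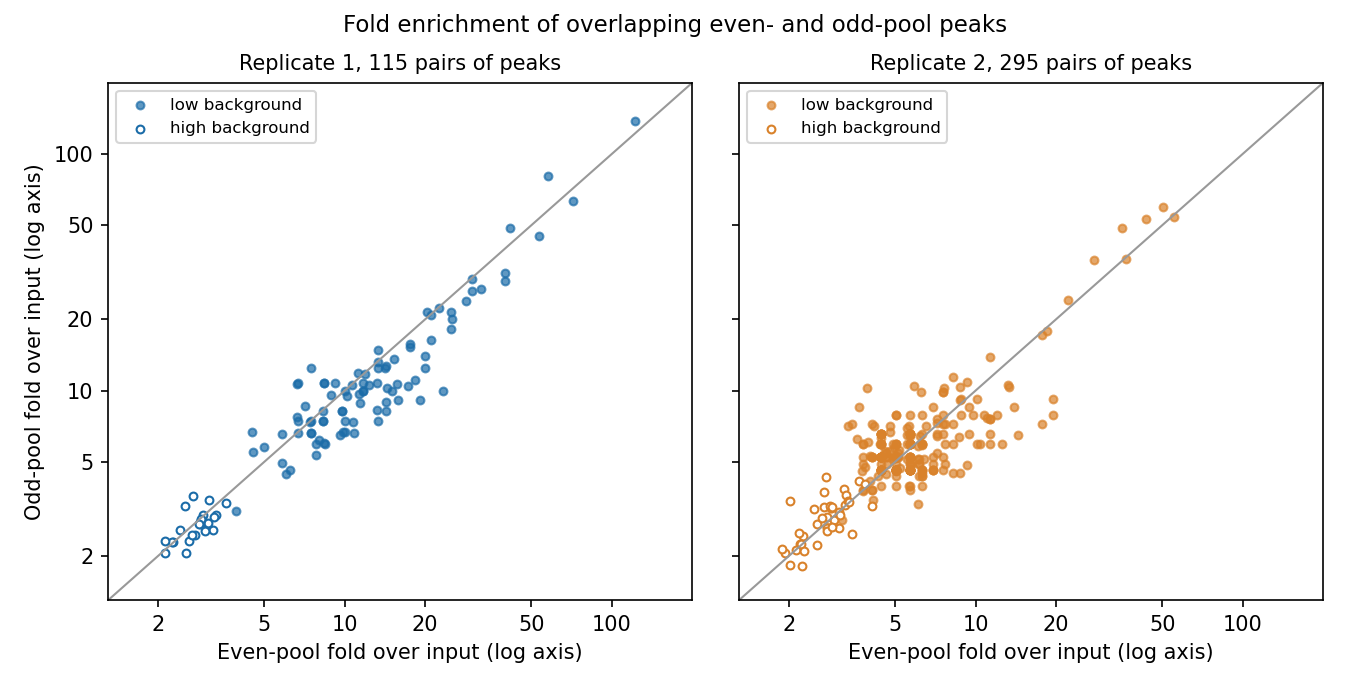
Fold enrichment over input of overlapping peaks, even pool on the x axis and odd pool on the y axis (both log scales), for 115 pairs in replicate 1 (left) and 295 in replicate 2 (right). The line marks equal folds and open circles a high background with either pool. In replicate 1, 87 pairs lie below the line, where the even fold is the higher, and in replicate 2, 133 do.

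Peaks of the even pool were mostly isolated. When peaks of a list with gaps of up to 10 kb were joined, replicate 1 gave 208 groups, of which 201 were single peaks and 5 had 3 or more. Besides the chromosome 15 and chromosome 17 groups and a trio on chromosome 6, these were 9 peaks on chromosome 9 (3022105 to 3036423) and 4 on chromosome 2 (98502418 to 98507485). Both of these stood over a high background, with folds of 2.13 to 2.91 and of 2.25 to 3.24. Replicate 2 gave 4581 groups, of which 4081 were single and 97 had 3 or more.

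The largest group of the even pool was on chromosome X in replicate 2, with 16 peaks within 24.4 kb (166419717 to 166444114). They held 10 to 31 fragments over 0.585 to 5.67 input fragments, with a median fold of 4.31. Of the 16 peaks, 12 overlapped an odd peak and 4 did not, and replicate 1 had no even peak there. These 16 made up most of the 20 even peaks of the chromosome in replicate 2. In this replicate chromosome X also had the lowest share of peaks without an odd peak outside chromosome Y, 7 of 20 (35%). On the 19 autosomes it was 92.3 to 97.1%. Of the 13 chromosome X peaks with an odd peak, 12 lay in this group, and some neighbours there overlapped the same odd peak. The 3 peaks of the chromosome outside the group and away from the site at 103382021 all lacked an odd peak. In replicate 1, 3 of 5 even peaks of chromosome X (60%) had no odd peak, against 47.9% of that list.

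**Figure D4:**
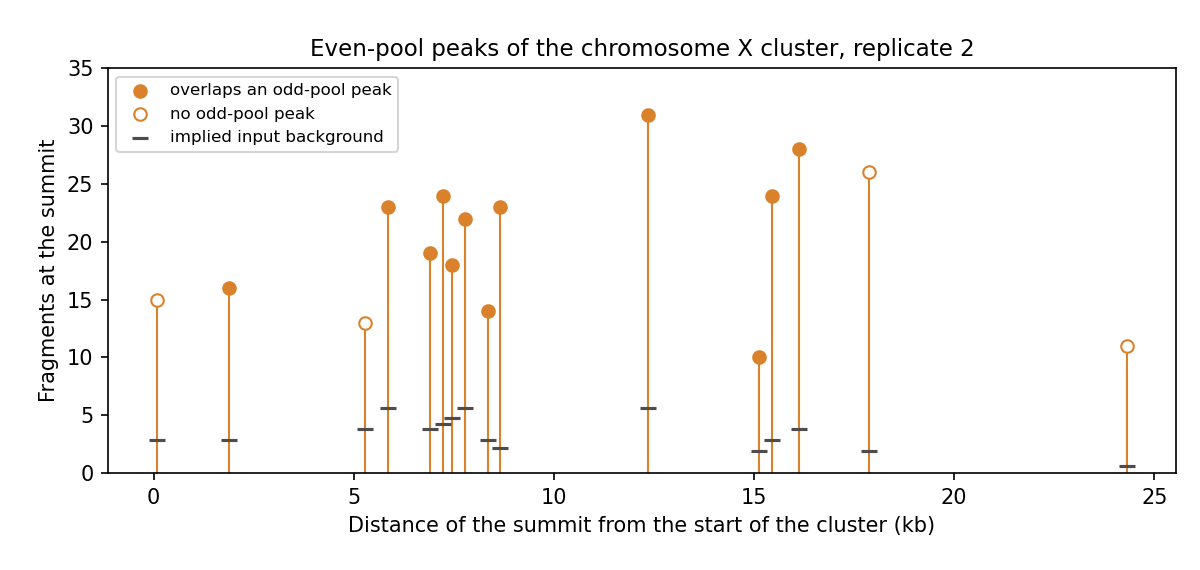
Fragments at the summit (y axis) of the 16 even-pool peaks of the chromosome X group in replicate 2, by distance from the start of the group (x axis, kb). Filled circles overlap an odd-pool peak (12), open circles do not (4), and dashes mark the implied input background, which lies below every summit.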

How the data were processed

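The 4 captured libraries (even and odd pools, 2 replicates) each had 1 peak list. The labels and the submitters' processing notes name FastQC, cutadapt, Bowtie, MACS2 and build mm9. How the aligner treated reads with several matches is not stated in the labels. Per the file headers, the authors ran MACS 2.1.1.20160309 on each capture and its input with a fixed fragment length of 95 bp, a p cutoff of 5e-05 and 1 tag kept per position. A fixed cutoff lists weaker sites in deeper libraries. The deposited values used were the signal (fragment pileup at the summit), the fold enrichment and −log10 q-values. The deposited q-value column is filled although the header line says it is left out. The local background was recovered as (pileup + 1) / fold − 1, and 10 or more input fragments was called high.

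Overlap, merging and gaps were computed with Python 3.11.15, numpy 2.4.6, pandas 2.3.3 and scipy 1.17.1, and were tested on simulated lists with known overlaps. Merged regions carry the peak with the highest fold of each list. Shares have exact binomial and fragments exact Poisson intervals. Named sites are the regions of both even lists without an odd peak, the 20 regions of both even lists with the highest smaller fold, the 10 peaks of each even list without an odd peak with the highest fold (ties by chromosome and start), and the strongest peaks by q and pileup. All other sites named, and the groups by gap, support or height, were chosen after their values were seen. Members and rules were chosen with earlier results of these data known. Alternatives were other overlap rules, stricter thresholds, no high backgrounds and 1 odd list at a time. Gene annotation and sequences were not used here.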

Additional observations from a re-analysis of the deposited data

How the results depend on the processing

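Of 43 alternative values, 28 stayed near the main one, 15 moved and 0 reversed. Counts of peaks and regions have no sign, so only the log2 ratios and the difference between pools could reverse. The band called near was wide. For the 40 even peaks of replicate 1 that overlapped one of replicate 2, a count of 28 without high backgrounds was still called near. When every list was limited to a −log10 q of at least 5, 19 even peaks of replicate 1 overlapped 19 of replicate 2, 40 of 120 and 207 of 269 overlapped no odd peak, and 0 regions of both even lists lacked an odd peak. Both regions were under this limit in replicate 2. With a fold of 5 or more in every list, 24 even peaks of replicate 1 overlapped one of replicate 2, and 23 the reverse. Without odd_probes replicate 1, 188 even peaks of replicate 1 had no odd peak, and without odd_probes replicate 2, 119. The regions of both even lists without an odd peak were 4 and 5 when those lists were left out. For these values fewer peaks or lists entered. The median log2 ratio of fold of replicate 1 to replicate 2, over the 40 even peaks of replicate 1 called in both lists, was 0.50. It was 1.45 in summit fragments per kept tag, 1.07 without high backgrounds and 1.22 at a −log10 q of 5 or more. The cause was not tested. The even share without an odd peak exceeded the odd share by 1.56 percentage points without replicate 1 and by 10.6 without replicate 2 (an alternative added after seeing the data). With the replicate as a block, the difference of 6.08 had an exact two-sided permutation p of 0.5, the smallest that 2 pairs allow (also added after seeing the data). The counts of peaks come from no test. Depth limits the weak peaks: at 7 fragments the exact interval runs from 2.81 to 14.4.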

Other observations

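The mitochondrial genome held 3 even peaks in replicate 1 and none of replicate 2. The peak at 16050 to 16204 held 80 fragments over 26.1 input fragments (fold 2.99) and overlapped an odd peak. Those at 1310 to 1517 and 15538 to 15651 held 77 and 60 fragments over 41.2 and 34.0 and overlapped none, with folds of 1.85 and 1.74. The former was the highest even summit without an odd peak in that replicate.

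Chromosome Y held 1 even peak in replicate 1 (427381 to 427484, 13 fragments, fold 11.7) and 8 in replicate 2. Of the 8, 7 overlapped an odd peak. All but the peak at 2397389 to 2397514 (14 fragments, fold 9.46) stood over 11.3 to 44.4 input fragments, with folds of 1.89 to 2.67.

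Near the start of chromosome 11, 12 even peaks of replicate 2 lay within 38.3 kb (3027328 to 3065616), with folds of 2.17 to 4.02 over 9.45 to 24.6 input fragments. Replicate 1 had no even peak there. The largest group without any odd overlap was 6 peaks within 16.9 kb of chromosome 7 in replicate 2 (26057475 to 26074351), each with 6 to 8 fragments. An odd peak of the same replicate lay inside that stretch, between the even peaks.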
